A study of Avena sativa with 108 samples.

Results

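Genes of the raffinose family and trehalose pathways were followed through the oat grain, from young to dry grain and into germination. The genes were all those whose annotated protein description, in any letter case, contained galactinol synthase, raffinose, stachyose, alpha-galactosidase or trehalose. The rule took 81 of the 68572 genes in the count tables and used no measured value. By description they were 10 galactinol synthases, 16 alpha-galactosidases, 29 trehalose-phosphate synthases (TPS) and 26 trehalose-phosphate phosphatases (TPP). No description contained raffinose or stachyose, because the enzymes that make raffinose are described in this annotation as galactinol--sucrose galactosyltransferases. Those 17 genes, called raffinose synthase-type here, are no members and are given as one of the other pathway groups. Each gene is named by its best protein match and the end of its identifier, so that GOLS1_5Ag0000617 is AVESA.00001b.r3.5Ag0000617 on chromosome 5A. The letter after the chromosome number is the subgenome (A, C or D) of this hexaploid.

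RNA was sequenced from the cultivars CDC Morrison and AC Morgan in 108 samples with 3 replicates a group. Whole grain was taken at 5, 10, 15, 20, 25, 30, 35 and 40 days postemergence of the panicle (DPE), and each replicate pooled 10 grains without glumes from a single panicle. Embryo and endosperm were taken separately at 0, 3, 6, 24 and 48 h from grain set on damp sterile paper in growth chambers under long days. Both cultivars were grown without any further treatment or genetic change given in the labels. Whole grain joins maternal tissue, endosperm and embryo in each library, so that fewer cells of a type and less RNA per cell cannot be told apart.

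Galactinol synthase makes galactinol from UDP-galactose and inositol, and galactinol is the galactose donor for raffinose and its longer relatives. These sugars accumulate in seeds as they dry, and alpha-galactosidases remove the galactose again, in germination as well as in cell wall turnover. In the trehalose pathway, TPS makes trehalose-6-phosphate, a signal of sucrose status in plants, and TPP removes the phosphate to give trehalose. Plant TPS proteins form a catalytic class, to which Arabidopsis TPS1 belongs, and a larger class, including TPS5 to TPS11, for most of which little enzyme activity has been found.

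Total counts ran from 11235800 to 30846400 in the 47 grain libraries used and from 3895700 to 39871400 in the 60 germination libraries, and 1 CDC Morrison library at 10 DPE with a total of 2184610 was left out. Levels are CPM, counts relative to the library total after TMM scaling, which corrects totals for a few very abundant genes. Gene lengths are not known here, so levels were tested only within a gene. Rankings of genes by level and sums over a class are not adjusted for length. Of the members, 77 passed the filter on low counts in grain and 78 in germination, and 51 and 50 reached a group mean of 10 CPM. GOLS2_5Dg0002994 and GOLS2_6Cg0000759 passed in neither experiment. The libraries that stood apart from their replicates for many of these genes were replicate 2 of CDC Morrison and replicate 2 of AC Morgan at 20 DPE and replicate 3 of CDC Morrison at 30 DPE and replicate 3 of CDC Morrison endosperm at 0 h. Some of the results that use them are also given without them. Replicate 1 of CDC Morrison embryo at 0 h also stood apart. Its summed level was 218 CPM for galactinol synthases, against 532 and 478 CPM, and 245 CPM for TPS, against 402 and 404 CPM. For TPP it was 106 CPM, against 178 and 168 CPM, and for alpha-galactosidases 563 CPM, against 493 and 433 CPM. With each library left out in turn, 13 to 18 members were higher and 21 to 26 lower in embryo from 0 to 6 h. Replicate 2 of CDC Morrison endosperm at 0 h, which is used in each comparison with endosperm at 0 h, stood apart in its most abundant genes. The 10 most abundant genes held 40.5% of its counts, against 7.62% and 21.2% in replicates 1 and 3. Its TMM factor was 0.517, against 0.789 and 0.574. The tissue labels were checked with lists of marker genes. The summed level of 64 endosperm storage genes was 61518 to 170992 CPM in endosperm and 345 to 9151 CPM in embryo from 0 to 6 h. A list of 23 alpha-amylase genes marked time, with 24.9 to 257 CPM up to 6 h and 437 to 13290 CPM later. It did not mark 1 tissue. At 24 h its mean was higher in embryo, at 2322 against 1056 CPM in CDC Morrison and 2685 against 482 CPM in AC Morgan. At 48 h it was higher in endosperm, at 9819 against 1805 CPM and 3606 against 1398 CPM. A list of 90 embryo axis genes did not separate the tissues, with 434 to 705 CPM in embryo and 457 to 565 CPM in endosperm from 0 to 6 h.

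From filling grain (20 DPE) to dry grain (40 DPE), 5 of 7 galactinol synthase transcripts rose and 15 of 29 TPS transcripts fell. Over both cultivars, 19 members were higher at 40 DPE and 32 were lower, of 77 tested, at a Benjamini-Hochberg adjusted p under 0.05 in the quasi-likelihood test of edgeR. That is 24.7% higher, against 29.5% of all genes tested, and 41.6% lower, against 38% of all genes. The shares of the members were thus near those of all genes, and the median log2 change was -0.50 for the members and -0.21 for all genes. The classes differed in direction. Of 7 galactinol synthases 5 were higher and none lower, and of 16 alpha-galactosidases 6 were higher and 7 lower. Of 29 TPS 4 were higher and 15 lower, and of 25 TPP 4 were higher and 10 lower. The share of TPP that were lower was near the 38% of all genes. Scaling by total counts alone moves the median of all genes by 0.47 on the log2 scale in this comparison, and gives 26 members higher and 26 lower. Between these times the summed level of the storage genes went from 467679 to 786232 CPM to 7357 to 47433 CPM, and their part in the changes was not tested.

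GOLS1_5Ag0000617 was the galactinol synthase with the largest group mean in grain. At 20 DPE its level was 20.8, 0.528 and 22.7 CPM in CDC Morrison and 0.933, 4.06 and 2.91 in AC Morgan. At 40 DPE it was 154, 131 and 261 CPM in CDC Morrison and 167, 235 and 241 in AC Morgan. Each library at 40 DPE lay above each library at 20 DPE, and the level of replicate 2 of CDC Morrison at 20 DPE was far below that of its replicates. The log2 change was 4.99 ± 0.49 (SE; edgeR quasi-likelihood test, Benjamini-Hochberg adjusted p = 3.91e-11), and 4.73 without that library.

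GOLS1_5Dg0000219, the other abundant GOLS1-type gene, changed by 5.34 ± 0.70 on the log2 scale, and GOLS2_4Cg0003137 by 2.99 ± 0.53. These 3 genes were the only galactinol synthases whose group mean reached 1 CPM in grain, and the remaining 7 stayed under 1 CPM. One of the latter, GOLS1_5Dg0002991, rose from 0 to 0.0479 CPM at 20 DPE to 0.0527 to 0.503 CPM at 40 DPE, which is a change of a few counts.

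CDC Morrison held more galactinol synthase transcript than AC Morgan at 30 DPE, a description with no test of the sum. The summed level of the galactinol synthases was 46.3 ± 38.4 CPM (SD, n = 3) at 20 DPE, 355 ± 179 CPM at 30 DPE and 378 ± 154 CPM at 40 DPE in CDC Morrison. In AC Morgan it was 9.54 ± 6.24, 79.4 ± 22.9 and 446 ± 94.4 CPM. The lowest CDC Morrison library at 30 DPE (168 CPM) lay above the highest of AC Morgan (96.8 CPM), and at 40 DPE the cultivars overlapped. The log2 change of GOLS1_5Ag0000617 from 20 to 30 DPE was 3.53 ± 0.64 in CDC Morrison, 2.97 ± 0.53 without replicate 2 at 20 DPE, and 3.79 ± 0.66 in AC Morgan. With or without that library, none of the 7 galactinol synthases tested had a cultivar difference in that change at an unadjusted p under 0.05.

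**Figure D1:**
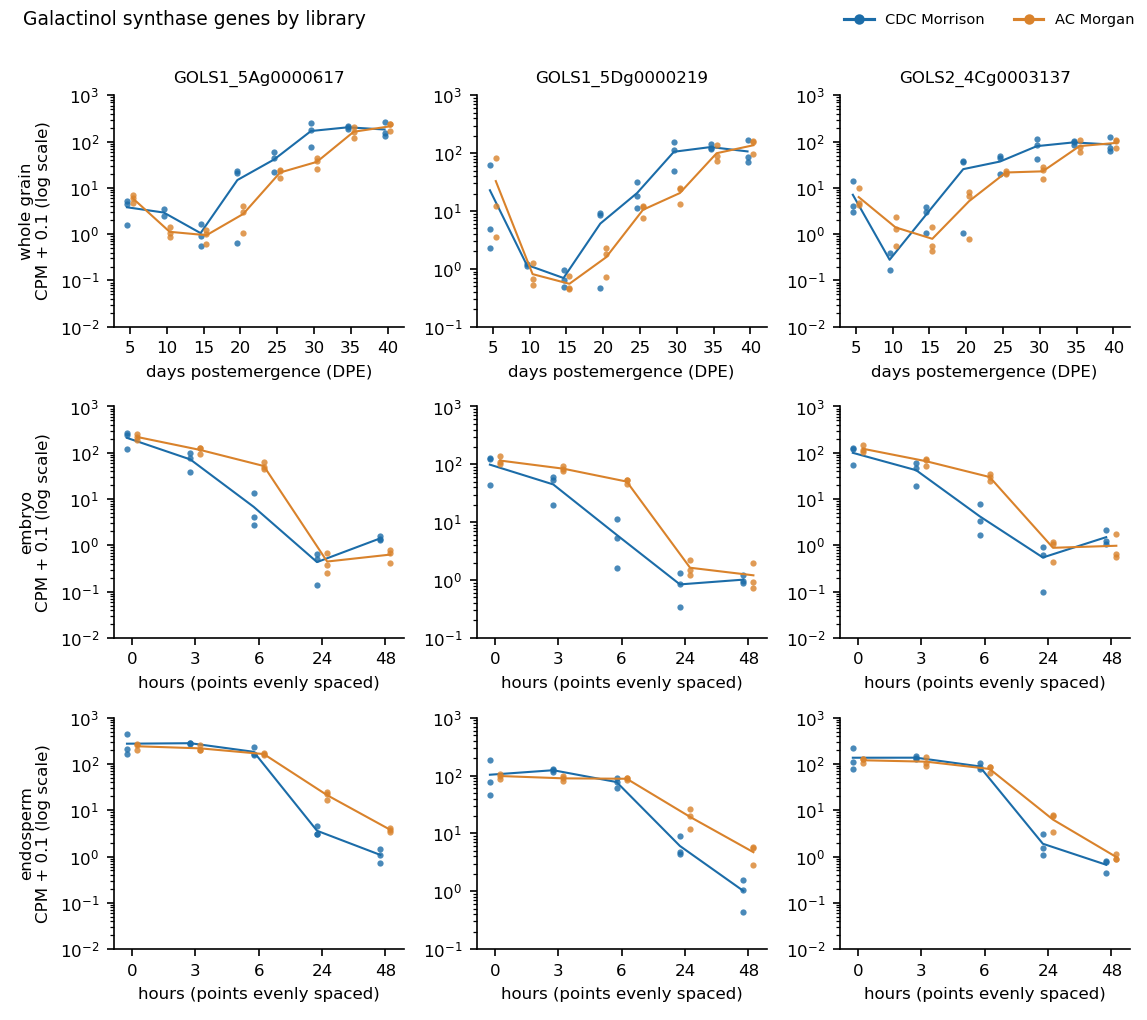
Levels of the abundant galactinol synthase genes in every library, in CPM plus 0.1 on a log axis, by time in whole grain (top), embryo (middle) and endosperm (bottom); CDC Morrison is blue, AC Morgan is orange, points are libraries and lines join group means. GOLS1_5Ag0000617 climbed to 131 to 261 CPM in grain at 40 DPE and dropped in CDC Morrison embryo to 2.60 to 13.5 CPM by 6 h, while endosperm held 153 to 228 CPM at 6 h.

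Other pathway groups moved in part with the galactinol synthases. Of 16 raffinose synthase-type genes tested, which join galactose from galactinol to sucrose, 8 were higher and 5 lower at 40 than at 20 DPE. Their summed level was 89.9 ± 35.4 CPM at 20 DPE, 2201 ± 713 CPM at 30 DPE and 1272 ± 411 CPM at 40 DPE in CDC Morrison (SD, n = 3). In AC Morgan it was 101 ± 36.3, 471 ± 157 and 1724 ± 968 CPM, so the order of the cultivars at 30 DPE was that of the galactinol synthases. The other pathway groups also hold inositol-3-phosphate synthase, inositol monophosphatase, UDP-glucose epimerase, trehalase and SNF1-related kinases. Over all 59 tested genes of these groups 27 were higher and 18 lower, where 29.5% and 38% of all genes were.

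**Figure D2:**
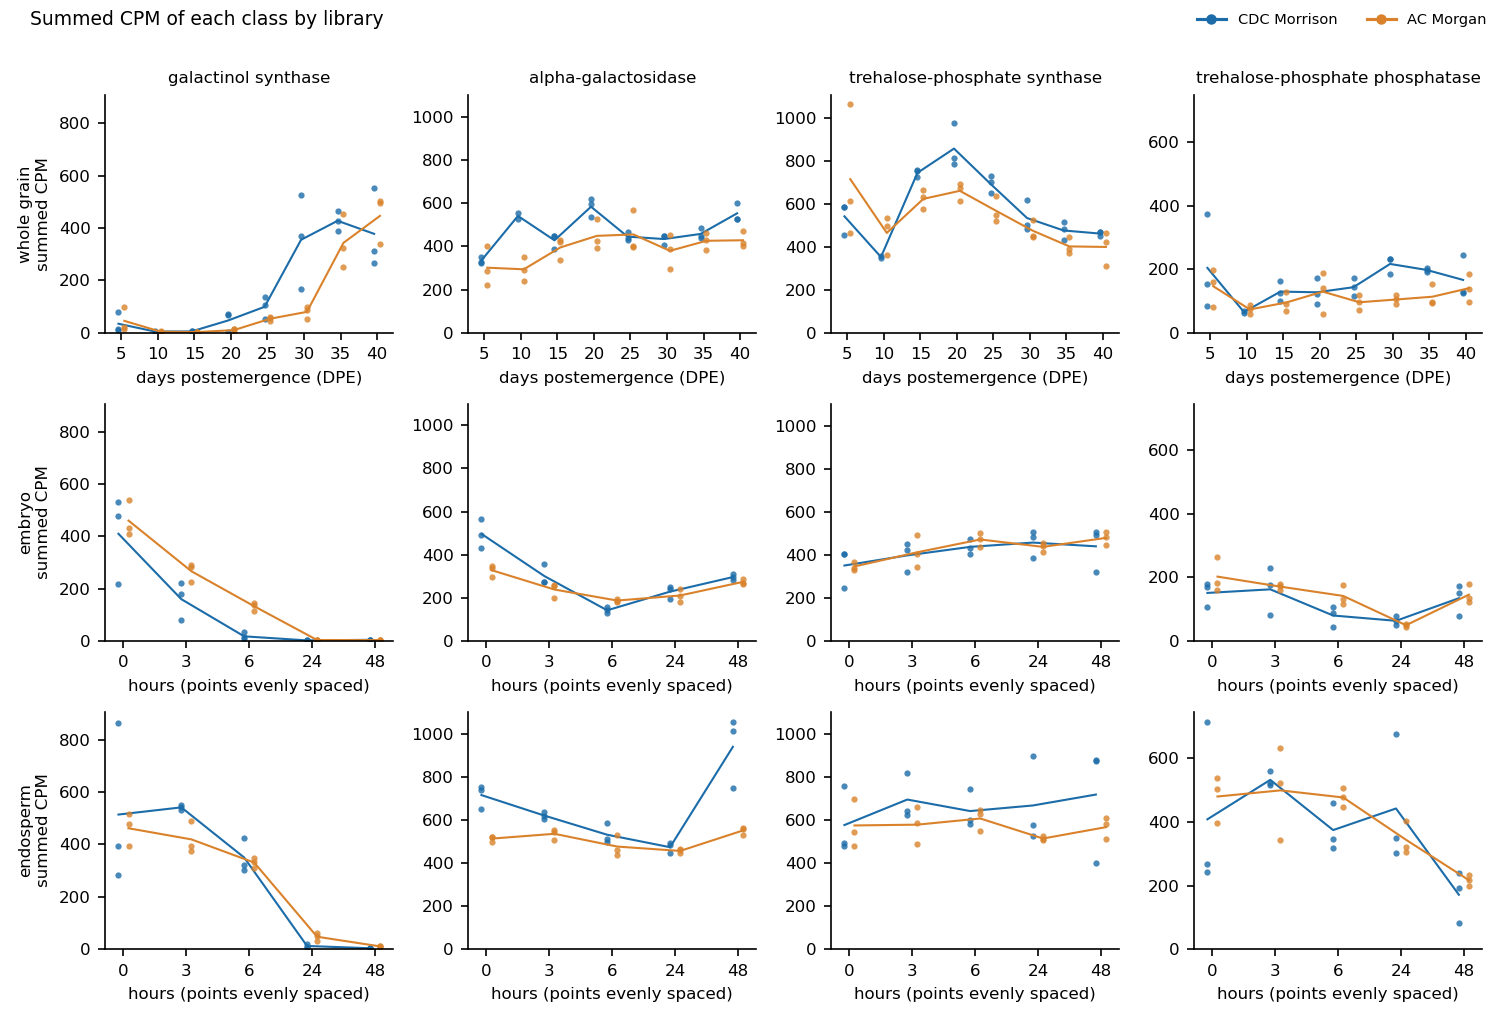
Summed level of each class of genes in CPM on a linear axis from 0, by time in whole grain, embryo and endosperm, with points for libraries, lines for group means, CDC Morrison in blue and AC Morgan in orange. The galactinol synthase sum was 168 to 526 CPM in CDC Morrison grain at 30 DPE and 53.5 to 96.8 CPM in AC Morgan.

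Of 16 alpha-galactosidases 6 rose and 7 fell from 20 to 40 DPE, and AGAL1_1Cg0001217, AGAL1_7Ag0002175 and AGAL3_4Cg0000270 did not pass the test. On each of chromosomes 1A, 1C and 1D, genes with consecutive identifiers had different time courses. AGAL_1Ag0000617, which matches a rice alpha-galactosidase, had its highest group mean in young grain, at 169 CPM in CDC Morrison at 10 DPE. At 20 DPE it stood at 12.9, 53.8 and 26.9 CPM in CDC Morrison and 47.4, 48.1 and 27.8 in AC Morgan. At 40 DPE no library was above 0.551 CPM. The log2 change was -6.74 ± 0.38 (edgeR quasi-likelihood test, Benjamini-Hochberg adjusted p = 8.65e-17), and the genes with the same description on the other subgenomes, AGAL_1Dg0000587 and AGAL_1Cg0001220, changed by -5.86 ± 0.50 and -5.26 ± 0.36.

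Their neighbours peaked later. AGAL_1Ag0000616 had group means of 9.76 CPM at 5 DPE, 87.4 CPM at 20 DPE and 7.37 CPM at 40 DPE in CDC Morrison. In AC Morgan its means were 7.01, 49.2 and 6.82 CPM at these times. It fell by 3.21 ± 0.34 on the log2 scale from 20 to 40 DPE, AGAL_1Dg0000586 fell by 2.82 ± 0.38 and AGAL_1Cg0001219 fell by 1.16 ± 0.20. How reads of such similar genes were divided among them cannot be told from the tables, so the values of single copies are uncertain.

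The largest increases were those of AGAL1_1Ag0000614 (2.75 ± 0.54) and AGAL1_1Ag0000613 (2.04 ± 0.55), named after their values were seen, with group means of 1.44 to 3.40 CPM and 27.5 to 28.0 CPM at 40 DPE. A pair of genes matching alpha-galactosidase mel1 of fission yeast also rose. AGAL_6Ag0000058 went from 36.1, 59.8 and 42.4 CPM at 20 DPE to 91.2, 125 and 106 CPM at 40 DPE in CDC Morrison. In AC Morgan it went from 57.1, 63.6 and 57.8 CPM to 121, 119 and 158 CPM, without overlap between the times in either cultivar (log2 change 1.19 ± 0.15). AGAL_2Dg0000969 rose by 0.85 ± 0.17 over both cultivars, and under scaling by total counts these and other changes are larger by the shift of 0.47 given above.

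AGAL_2Dg0000969 was also the 1 alpha-galactosidase that differed between the cultivars at 40 DPE. At 40 DPE it was 154, 174 and 130 CPM in CDC Morrison and 35.8, 21.9 and 29.3 in AC Morgan. The cultivars did not overlap, and CDC Morrison was higher by 2.40 ± 0.25 on the log2 scale (edgeR quasi-likelihood test, Benjamini-Hochberg adjusted p = 3.38e-09). The same gene was higher in CDC Morrison by 2.16 ± 0.30 in embryo and by 2.01 ± 0.30 in endosperm at 0 h. At 48 h it reached 207, 274 and 252 CPM in CDC Morrison endosperm and 32.6, 61.3 and 62.5 CPM in AC Morgan endosperm.

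Few other members differed between cultivars in dry grain. At 40 DPE 3 members were higher in CDC Morrison, against 5.77% of all genes, and 1 was lower, against 7.13%, which is 3.90% and 1.30% of the 77 members tested. Without replicate 1 of AC Morgan 1 member was higher and 2 were lower, and without replicate 1 of CDC Morrison 2 were higher and 2 lower. Besides AGAL_2Dg0000969, TPP1_6Dg0000938 was higher, at 1.30, 0.187 and 0.937 CPM against 0, 0.0527 and 0.0503 CPM, a difference of few counts. The member that was lower, TPS1_7Ag0000195, was named after its values were seen. It was listed at 0 in all 9 CDC Morrison libraries at 20, 30 and 40 DPE and had 0.158 to 0.503 CPM in the 9 AC Morgan libraries. In germination it was listed at 0 in every CDC Morrison library except 1 endosperm library at 3 h (0.109 CPM), while AC Morgan embryo reached 2.98 to 4.13 CPM at 24 h.

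**Figure D3:**
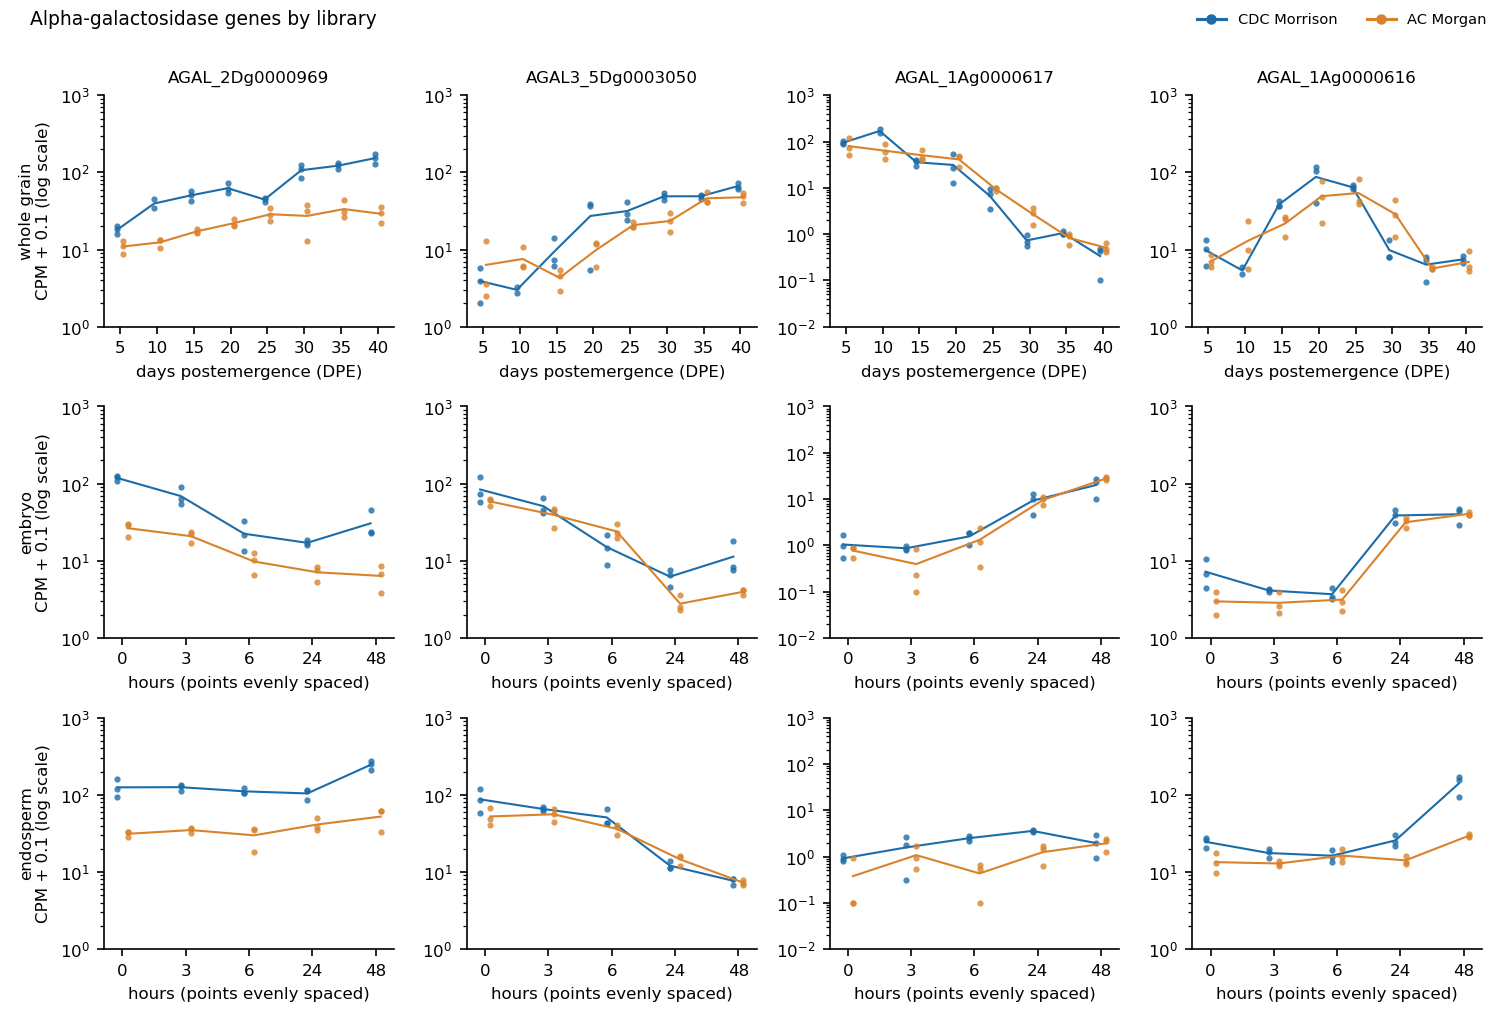
Levels of alpha-galactosidase genes in every library, in CPM plus 0.1 on a log axis, by time in whole grain, embryo and endosperm; CDC Morrison is blue, AC Morgan is orange, points are libraries and lines join group means. AGAL_2Dg0000969 separated the cultivars, with 130 to 174 CPM in CDC Morrison and 21.9 to 35.8 in AC Morgan grain at 40 DPE.

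Among the TPS genes, the 3 genes matching Arabidopsis TPS11 rose in late grain, the 3 matching TPS10 fell, and 8 of 9 matching TPS7 fell. TPS11_6Cg0000874 was at 19.1, 4.91 and 40.8 CPM in CDC Morrison and 2.28, 8.34 and 4.77 in AC Morgan at 20 DPE. At 40 DPE it was at 62.5, 53.6 and 74.6 CPM in CDC Morrison and 31.4, 70.1 and 53.3 in AC Morgan. The times did not overlap within either cultivar, and the log2 change was 2.44 ± 0.46, with 1.50 ± 0.43 for TPS11_6Ag0001880 and 1.65 ± 0.45 for TPS11_6Dg0001558.

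TPS10_7Cg0002664 had 60.9 to 85.4 CPM in CDC Morrison and 55.3 to 85.4 in AC Morgan at 20 DPE, and 1.31 to 2.70 CPM in all 6 libraries at 40 DPE. It fell by 5.23 ± 0.39 on the log2 scale, TPS10_7Ag0002090 fell by 4.28 ± 0.38 and TPS10_7Dg0001079 fell by 4.21 ± 0.42. Of 9 TPS7-type genes 8 fell, by 0.50 to 3.09, and TPS7_1Dg0001776 did not pass (-0.40). The largest changes among them were -2.96 ± 0.29 for TPS7_3Ag0002154, -2.72 ± 0.34 for TPS7_3Cg0002397 and -3.09 ± 0.23 for TPS7_3Dg0001699. TPS1_1Dg0001782, which matches the catalytic Arabidopsis TPS1, fell by 2.43 ± 0.29.

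The timing of the TPS decrease differed between the cultivars. From 20 to 30 DPE, 15 members rose and 28 fell in CDC Morrison, and 7 rose and 16 fell in AC Morgan. These were 19.5% and 36.4% of the members in CDC Morrison, against 23% and 25.2% of all genes, and 9.09% and 20.8% in AC Morgan, against 15.2% and 13.9%. Single libraries at 20 DPE moved these counts, with 9 higher in CDC Morrison without its replicate 2, 4 higher in AC Morgan without its replicate 1 and 10 lower without its replicate 2. Leaving out replicate 2 at 30 DPE also gave 9 higher in CDC Morrison and 10 lower in AC Morgan. In the test of the difference between the cultivars' changes, 4 members were higher, against 5.19% of all genes, and 12 were lower, against 6.34%, which is 5.19% and 15.6% of the 77 members. Of the 12, 8 were TPS, 3 alpha-galactosidases and 1 a TPP. Without replicate 2 of CDC Morrison at 30 DPE only 3 members were lower, without its replicate 1 there were 5, without replicate 1 of AC Morgan at 30 DPE 4, and without replicate 3 of CDC Morrison 17. Under scaling by total counts 21 members rose and 21 fell in CDC Morrison, and 18 rose and 8 fell in AC Morgan, with the median of all genes moved by 0.42 and 0.51.

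TPS10_7Cg0002664 showed the largest negative difference between the cultivars' changes. At 30 DPE it was at 1.91, 1.29 and 10.9 CPM in CDC Morrison and 31.2, 27.8 and 29.1 in AC Morgan, so that replicate 3 of CDC Morrison was the highest of its group and the cultivars did not overlap. The change in CDC Morrison was lower than in AC Morgan by -2.60 ± 0.64 on the log2 scale (edgeR quasi-likelihood test, Benjamini-Hochberg adjusted p = 0.00785), and by -4.19 without that library. The difference was -2.39 ± 0.65 for TPS10_7Ag0002090, -2.29 ± 0.73 for TPS10_7Dg0001079 and -1.92 ± 0.63 for TPS7_3Cg0002397. AGAL_1Dg0000586, with -2.43 ± 0.69, had the same direction but lost its call when any 1 of 6 libraries was left out. The storage marker genes moved in the same interval, from 467679 to 682940 CPM down to 15865 to 85206 CPM in CDC Morrison and from 473241 to 786232 CPM down to 227401 to 238052 CPM in AC Morgan, and their part in these differences was not tested.

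The TPP genes were mostly low and moved in both directions. TPP8_1Ag0003675, which matches a rice TPP, rose from 1.14 to 16.4 CPM at 20 DPE to 21.3 to 76.5 CPM at 40 DPE, a log2 change of 2.23 ± 0.36. TPP8_1Ag0002167 changed by 1.10 ± 0.48, and its libraries at 20 and 40 DPE overlapped. TPP7_5Ag0002326 and TPP7_5Dg0001869, whose rice relative TPP7 is known from germination under water, did not pass the test between 20 and 40 DPE, while TPP7_5Cg0001917 fell by 2.33 ± 0.44.

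The largest positive cultivar differences in the change from 20 to 30 DPE were those of TPP9_5Dg0000479 and TPP9_5Ag0000892, and they rest on 1 library. At 20 DPE, TPP9_5Dg0000479 was at 0.726, 19.1 and 0.854 CPM in the AC Morgan libraries and at 0.466, 0.845 and 1.34 CPM in CDC Morrison. TPP9_5Ag0000892 was at 1.14, 15.6 and 1.51 CPM in these AC Morgan libraries, so that replicate 2 alone was high for both genes. The differences of 5.80 ± 1.18 and 5.27 ± 1.09 on the log2 scale became 2.70 (edgeR quasi-likelihood test, Benjamini-Hochberg adjusted p = 0.0653) and 3.08 (adjusted p = 0.0361) without that replicate.

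**Figure D4:**
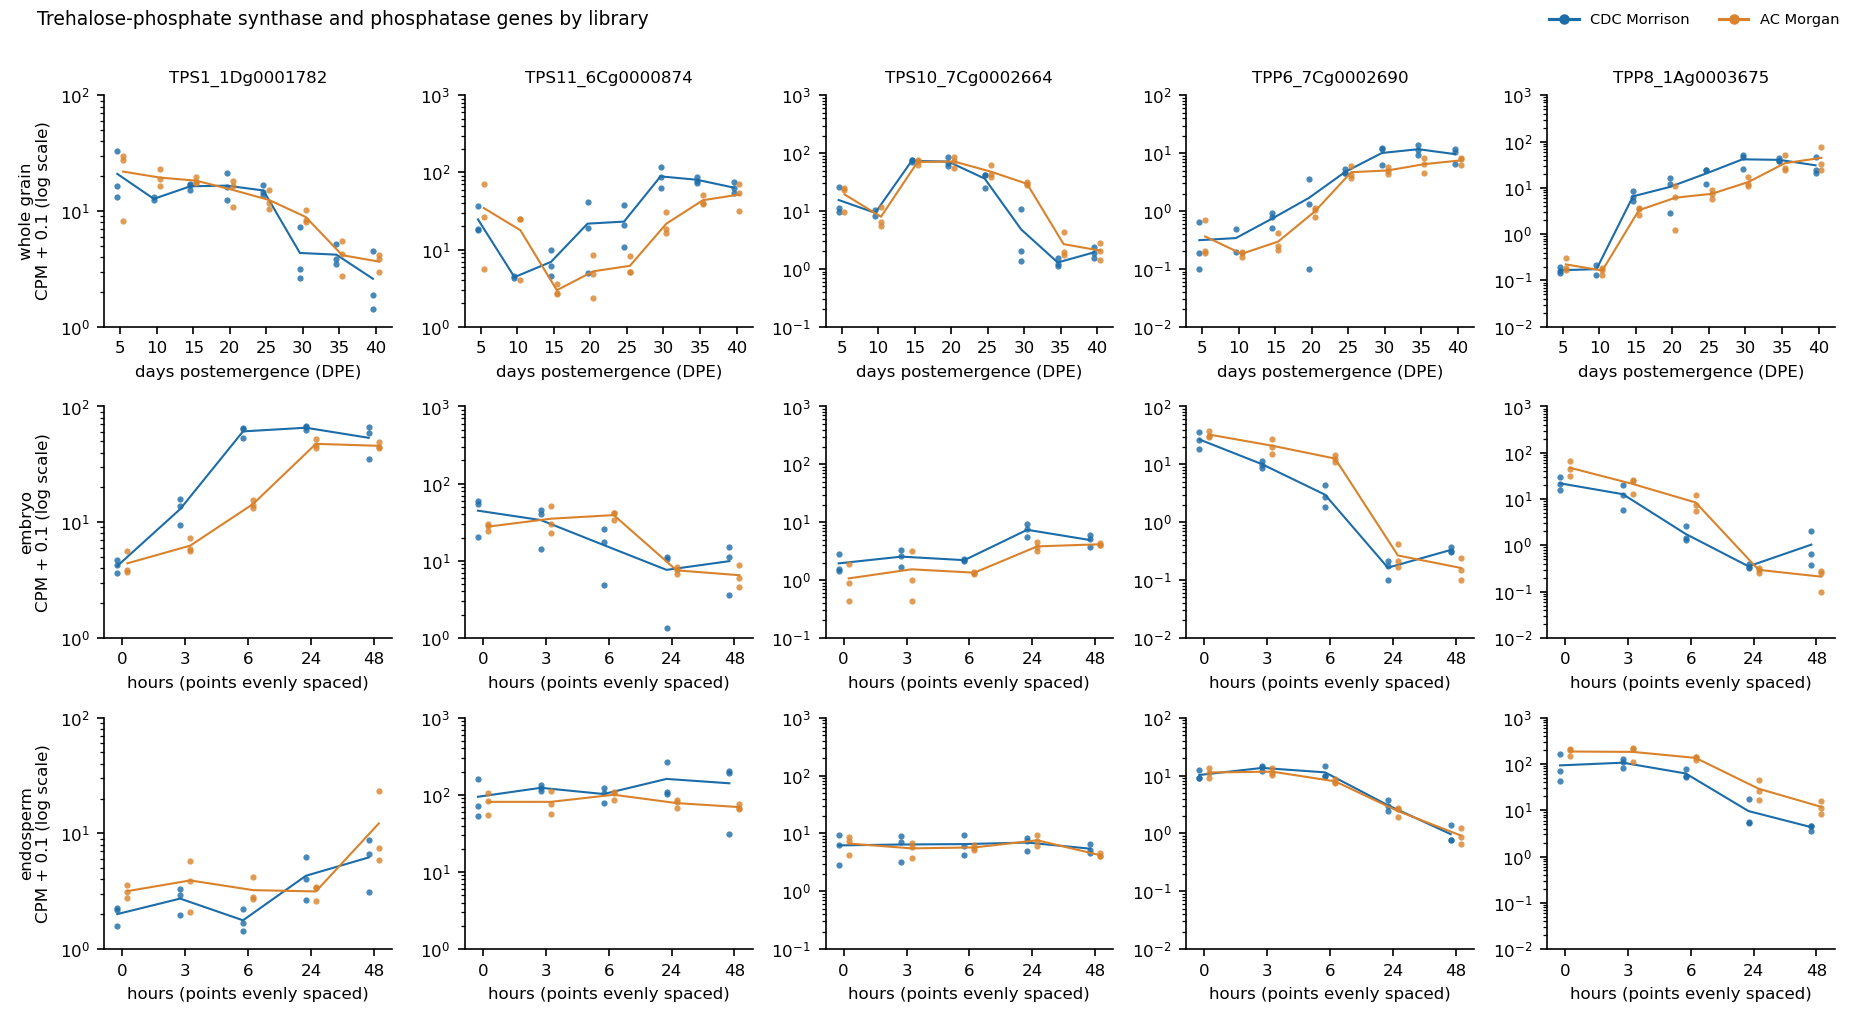
Levels of TPS and TPP genes in every library, in CPM plus 0.1 on a log axis, by time in whole grain, embryo and endosperm; CDC Morrison is blue, AC Morgan is orange, points are libraries and lines join group means. TPS1_1Dg0001782 in embryo reached 53.7 to 65.5 CPM in CDC Morrison at 6 h and 13.1 to 15.6 CPM in AC Morgan.

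At 0 h, before germination was started, most members that differed between the tissues were lower in embryo than in endosperm. Of 78 tested members 30 were lower in embryo, which is 38.5% against 16.2% of all genes, and 7 were higher, which is 8.97% against 22.6%. Under scaling by total counts, which moves the median of all genes by 0.57, 18 members were lower and 18 higher, so the predominance of lower members depends on the scaling. The lower members were 8 of 16 alpha-galactosidases, 12 of 29 TPS and 10 of 26 TPP, and none of the galactinol synthases.

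The abundant galactinol synthases had similar levels in both tissues at 0 h. GOLS1_5Ag0000617 was at 120, 272 and 236 CPM in CDC Morrison embryo and 218, 250 and 191 CPM in AC Morgan embryo. In endosperm it was at 163, 206 and 453 CPM in CDC Morrison and 198, 274 and 250 in AC Morgan. The tissues overlapped, and the difference was -0.26 on the log2 scale (edgeR quasi-likelihood test, Benjamini-Hochberg adjusted p = 0.489). Only the rare GOLS1_5Dg0002991 was higher in embryo, at 0.133 to 1.10 CPM against 0 to 0.761 CPM, and it did not pass without replicate 3 of CDC Morrison endosperm (adjusted p = 0.0657).

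TPP and alpha-galactosidase genes gave the clearest differences between the tissues at 0 h. TPP8_1Ag0003675 was at 15.4, 29.2 and 20.8 CPM in CDC Morrison embryo and 71.2, 43 and 165 CPM in CDC Morrison endosperm. In AC Morgan it was at 44.5, 66.8 and 30.6 CPM in embryo and 151, 207 and 198 CPM in endosperm, without overlap within either cultivar. Embryo was lower by -2.04 ± 0.33 on the log2 scale, and by -2.62 ± 0.47 for TPP8_1Ag0002167, -1.32 ± 0.30 for TPP7_5Dg0001869 and -1.32 ± 0.39 for TPS11_6Cg0000874. AGAL_1Cg0001219 was lower in embryo by -2.80 ± 0.17, with 2.31 to 10.4 CPM against 33.4 to 49.5 CPM. AGAL_1Dg0000586 was lower by -3.96 ± 0.77, with at most 0.986 CPM in embryo against 1.75 to 4.22 CPM. The largest negative differences were those of AGAL_1Dg0000586 and of TPP1_6Dg0000938, which had at most 0.110 CPM in embryo and 0 to 1.48 CPM in endosperm (-3.12 ± 1.04, and -1.14 without replicate 2 of AC Morgan endosperm).

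AGAL1_7Ag0002175, matching an Arabidopsis alpha-galactosidase, was the 1 gene of its class higher in embryo. It was at 16.1, 6.70 and 14.8 CPM in CDC Morrison and 40.4, 36.9 and 39.2 in AC Morgan embryo, and at 1.52 to 15.6 CPM in endosperm. The difference was 1.65 ± 0.30 on the log2 scale, and within embryo CDC Morrison was lower than AC Morgan by -1.62 ± 0.40. TPS1_1Ag0001750 was higher in embryo by 1.00 ± 0.25.

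At 0 h the cultivars differed in few members. In embryo 5 were higher in CDC Morrison and 2 lower, which is 6.41% and 2.56% of the members against 7.17% and 5.9% of all genes. In endosperm 4 were higher and 3 lower, which is 5.13% and 3.85% against 6.95% and 6.09%, and 2 and 1 without replicate 1 of AC Morgan endosperm, with 1 lower also without replicate 1 or 3 of CDC Morrison endosperm. All 5 and all 4 higher members were alpha-galactosidases, among them AGAL_2Dg0000969 and AGAL_1Ag0000616 in both tissues, the latter by 1.30 ± 0.28 in embryo and 0.86 ± 0.26 in endosperm.

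During the first 6 h the galactinol synthase and many alpha-galactosidase transcripts fell in embryo, 10 of 29 TPS transcripts rose, and few members passed the test in endosperm. At 3 h 11 members were higher in embryo than at 0 h and 8 were lower, which is 14.1% and 10.3% of the members against 6.32% and 5.21% of all genes, and 5 and 4 members without replicate 2 of AC Morgan at 3 h. Without replicate 1 of AC Morgan at 0 h they were 7 and 5, and without replicate 3 of CDC Morrison at 3 h 5 were lower. At 6 h 17 were higher and 24 lower, which is 21.8% and 30.8% against 21.2% and 20.2%. At 6 h the lower members were 4 of 7 galactinol synthases, 8 alpha-galactosidases, 3 TPS and 9 TPP, and the higher ones were 10 TPS, 5 TPP and 2 alpha-galactosidases. Under scaling by total counts 24 members were higher and 14 lower at 6 h, with the median of all genes moved by 0.38 on the log2 scale.

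In endosperm no member passed the test at 3 h, against 0.187% of all genes higher and 0.0272% lower. There 7 of 78 members had an unadjusted p under 0.05, and DESeq2 and limma also called 0. The number of members with such an unadjusted p at 6 h was 14. At 6 h 2 were higher and 1 lower, which is 2.56% and 1.28% against 2.99% and 0.921%. The number higher was 0 or 1 when any 1 of 8 of the 12 libraries was left out. They were TPP1_6Ag0001257 (0 to 0.197 CPM at 0 h and 0 to 1.16 CPM at 6 h), TPP1_2Ag0001749 (0.254 to 0.888 and 0.271 to 2.74 CPM) and AGAL_6Ag0000058, which fell by 0.58 ± 0.16 on the log2 scale and lost its call when any 1 of 6 libraries was left out. Without replicate 3 of CDC Morrison endosperm at 0 h, neither TPP1_6Ag0001257 (edgeR quasi-likelihood test, Benjamini-Hochberg adjusted p = 0.0662) nor TPP1_2Ag0001749 (adjusted p = 0.0916) passed.

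The change from 0 to 6 h was compared between the tissues directly. The change in embryo was lower than in endosperm for 14 members, 17.9% against 8.62% of all genes, and higher for 8, 10.3% against 3.91%. The 14 were 7 alpha-galactosidases, 3 galactinol synthases, 3 TPP and 1 TPS, and the 8 were 7 TPS and 1 TPP.

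GOLS1_5Ag0000617 in CDC Morrison embryo went from 120, 272 and 236 CPM at 0 h to 38.9, 100 and 75.7 CPM at 3 h and 2.60, 13.5 and 3.99 CPM at 6 h. In AC Morgan embryo it went from 218, 250 and 191 CPM to 126, 94.5 and 124 CPM and 44.3, 61.7 and 49 CPM. Each library at 6 h lay below each at 0 h, and the CDC Morrison libraries at 6 h lay below those of AC Morgan. In endosperm it was still at 161, 228 and 159 CPM in CDC Morrison and 153, 165 and 173 in AC Morgan at 6 h. Over both cultivars embryo changed by -3.53 ± 0.30 on the log2 scale (edgeR quasi-likelihood test, Benjamini-Hochberg adjusted p = 3.70e-13), and the difference between the tissues was -2.96 ± 0.39.

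The other abundant galactinol synthases behaved alike in direction, with -2.63 ± 0.33 for GOLS1_5Dg0000219 and -3.31 ± 0.34 for GOLS2_4Cg0003137 in embryo. All 3 fell further in CDC Morrison embryo than in AC Morgan embryo, by -2.89 ± 0.55 for GOLS1_5Ag0000617, -2.85 ± 0.64 for GOLS1_5Dg0000219 and -2.56 ± 0.63 for GOLS2_4Cg0003137. In endosperm these 3 genes changed by -0.57 ± 0.27, -0.29 ± 0.31 and -0.62 ± 0.31 from 0 to 6 h, in the same order, and none passed the test. From 6 to 24 h they changed by -4.33 ± 0.31, -2.94 ± 0.34 and -4.63 ± 0.37, and all passed. GOLS1_5Ag0000617 was at 2.91, 3.04 and 4.57 CPM in CDC Morrison and 16.3, 25 and 21.9 in AC Morgan endosperm at 24 h, without overlap between the cultivars. By then no embryo library held more than 0.596 CPM.

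The raffinose synthase-type genes did not follow the galactinol synthases in embryo. Their summed level was 1074 ± 642 CPM at 0 h and 2086 ± 478 CPM at 6 h in CDC Morrison embryo (SD, n = 3). At 0 h replicate 1 of CDC Morrison embryo was at 332 CPM, against 1450 and 1438 CPM in its replicates. In AC Morgan embryo the sum was 1609 ± 249 and 1387 ± 123 CPM. Of the raffinose synthase-type genes 4 were higher and 4 lower at 6 h. Inositol-3-phosphate synthase, which starts the supply of inositol, had 3 genes lower and none higher. Its summed level went from 529 ± 149 to 84.2 ± 31.8 CPM in CDC Morrison embryo. The AC Morgan embryo libraries went from 531, 625 and 557 CPM to 214, 220 and 250 CPM. Of the 59 other pathway genes tested, 8 were higher and 32 lower, where 21.2% and 20.2% of all genes were.

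All 6 alpha-galactosidases that were higher at 40 than at 20 DPE fell in embryo from 0 to 6 h, where 20.2% of all genes were lower. The other classes were less uniform, with 3 of 5 such galactinol synthases and 1 of 4 such TPS lower, and the rest not called. The share among all genes higher at 40 DPE was not counted. In endosperm AGAL_6Ag0000058 was lower and the other 5 alpha-galactosidases did not pass the test. AGAL_2Dg0000969 went from 126, 120 and 107 CPM to 32.6, 21.3 and 13.1 CPM in CDC Morrison embryo and from 20.5, 29.7 and 29 CPM to 10.2, 6.40 and 12.4 CPM in AC Morgan embryo between 0 and 6 h. Both cultivars fell without overlap, by 1.93 ± 0.21 on the log2 scale, and the tissue difference was -1.82 ± 0.29. AGAL_6Ag0000058 changed by -1.80 ± 0.17 in embryo. The genes that rose at 6 h were AGAL_1Dg0000587, by 2.18 ± 0.70 from at most 1.10 CPM at 0 h, and AGAL1_7Ag0002175, by 0.74 ± 0.27.

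Of 6 TPS1-type genes tested on chromosome 1, 3 rose in embryo from 0 to 6 h, each with the larger change in CDC Morrison, and 1 fell. On other chromosomes, TPS1_3Dg0002549, named after its values were seen, also rose, by 2.10 ± 0.65 on the log2 scale. It was not called for a cultivar difference in that change. TPS1_7Ag0000195 did not pass. TPS1_1Dg0001782 was at 4.59, 4.16 and 3.51 CPM at 0 h, 13.6, 15.6 and 9.43 CPM at 3 h and 65.5, 53.7 and 63.2 CPM at 6 h in CDC Morrison embryo. In AC Morgan embryo it was at 3.64, 3.78 and 5.51 CPM at 0 h, 5.57, 7.22 and 5.73 CPM at 3 h, 13.1, 14.1 and 15.6 CPM at 6 h and 46.1, 43.6 and 52.7 CPM at 24 h. The cultivars overlapped at 0 h and not at 3 or 6 h. The log2 change from 0 to 6 h was 2.81 ± 0.24 over both cultivars (edgeR quasi-likelihood test, Benjamini-Hochberg adjusted p = 9.40e-13), the cultivar difference 2.17 ± 0.48 (adjusted p = 0.00296) and the tissue difference 2.91 ± 0.40.

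TPS1_1Ag0001750 changed by 1.98 ± 0.22 on the log2 scale in embryo, with a cultivar difference of 1.88 ± 0.43. TPS1_1Ag0003275 changed by 0.82 ± 0.21 over both cultivars, but its libraries were higher at 6 h in CDC Morrison only, going from 4.56 to 6.25 CPM to 19.2 to 24.8 CPM, while AC Morgan went from 5.23 to 6.66 CPM to 3.32 to 6.11 CPM (cultivar difference 2.42 ± 0.42). The gene that fell, TPS1_1Ag0000570, changed by -0.89 ± 0.20, and TPS1_1Dg0000534 (-0.27) and TPS1_1Dg0002491 (0.91) did not pass. Of 9 TPS7-type genes 5 rose and 1 fell, with 1.00 ± 0.20 for TPS7_3Cg0002397, whereas the 3 TPS11-type genes did not pass the test at 6 h.

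All 4 TPP genes that were higher at 40 than at 20 DPE fell in embryo from 0 to 6 h, where 20.2% of all genes were lower. As for the alpha-galactosidases, the share among all genes higher at 40 DPE was not counted. TPP8_1Ag0003675 was at 1.19, 2.49 and 1.31 CPM in CDC Morrison and 5.45, 7.21 and 12.3 in AC Morgan embryo at 6 h, all below the levels at 0 h. The log2 change was -3.11 ± 0.36, and -3.03 ± 0.52 for TPP8_1Ag0002167. TPP6_7Cg0002690, named after its values were seen, fell from 18, 36.3 and 26.2 CPM to 1.73, 4.31 and 2.63 CPM in CDC Morrison embryo and from 31.4, 37.1 and 29.1 CPM to 10.8, 12.4 and 14.3 CPM in AC Morgan embryo. Its cultivar difference was -1.84 ± 0.40, so CDC Morrison again fell further. TPP7_5Cg0001917 rose instead, by 1.37 ± 0.35. The largest positive change among the members past the test, after that of TPS1_1Dg0001782, was that of TPP1_6Cg0003258 (2.72 ± 1.03), which had at most 0.0848 CPM at 0 h and 0.621 CPM at 6 h and lost its call when any 1 of 5 libraries was left out.

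Over all members, the change in embryo from 0 to 6 h was lower in CDC Morrison than in AC Morgan for 7, 8.97% against 3.35% of all genes, and higher for 3, 3.85% against 2.11%. Without replicate 3 of AC Morgan embryo at 0 h it was lower for 4, as it was without replicate 3 of CDC Morrison embryo at 6 h. The 7 were 3 galactinol synthases, 3 alpha-galactosidases and 1 TPP, and the 3 were the TPS1-type genes TPS1_1Dg0001782, TPS1_1Ag0001750 and TPS1_1Ag0003275. The summed alpha-amylase level was 111 to 257 CPM in CDC Morrison and 49.3 to 118 in AC Morgan embryo at 6 h, and its relation to these differences was not tested.

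**Figure D5:**
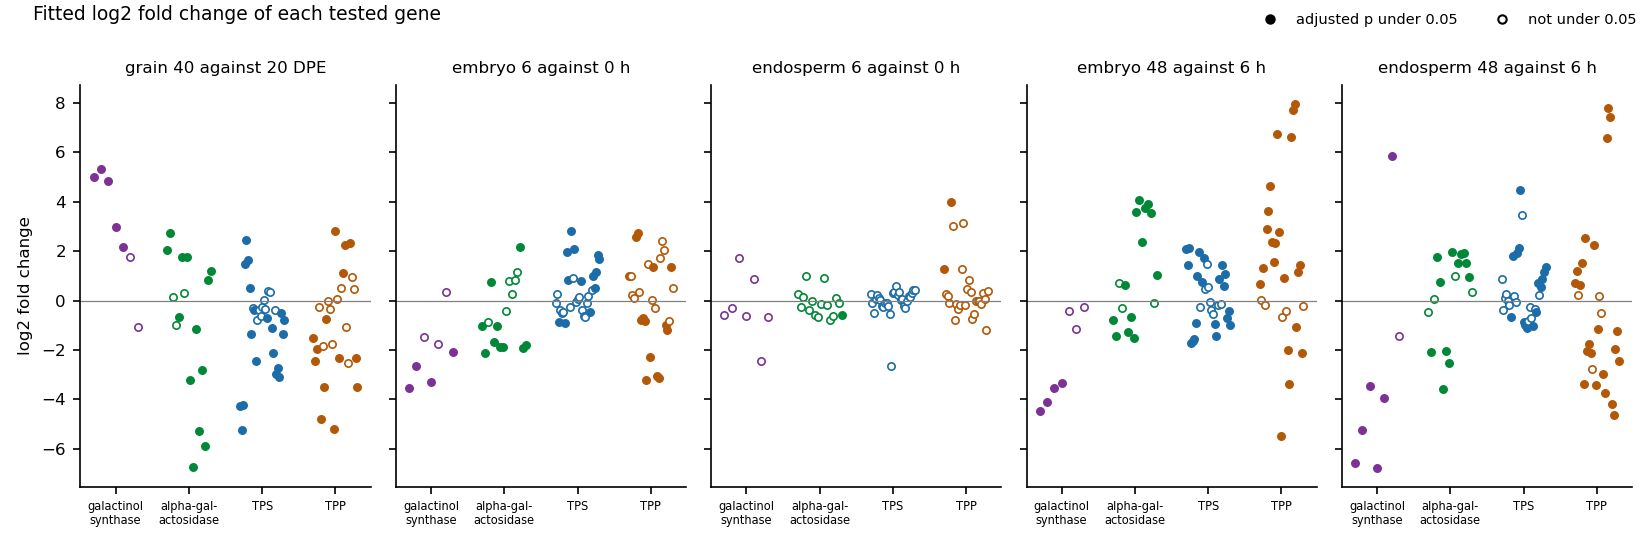
Fitted log2 fold change of every tested member by class in 5 comparisons, with filled points for an adjusted p under 0.05 and open points for the rest. Of the 7 galactinol synthases, 6 lie above 0 from 20 to 40 DPE (5 past the test) and 6 below 0 in embryo from 0 to 6 h (4 past the test), and in endosperm 3 members passed the test from 0 to 6 h.

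After 6 h the abundant galactinol synthase transcripts fell in both tissues, and genes of the other classes moved in both directions. At 48 h 4 of 7 galactinol synthases were lower and none higher than at 6 h in embryo, and 5 were lower and 1 higher in endosperm. The one that rose, GOLS2_5Dg0002993, named after its values were seen, was listed at 0 in each endosperm library at 6 h and had 0.106 to 1.53 CPM at 48 h. Of 16 alpha-galactosidases 8 were higher and 5 lower in embryo, and 8 higher and 4 lower in endosperm. Of 26 TPP 16 were higher and 5 lower in embryo, and 9 higher and 13 lower in endosperm. From 6 to 24 h 29 members rose and 27 fell in embryo, against 29.6% and 24.9% of all genes, which is 37.2% and 34.6% of the members. In endosperm 12 rose and 25 fell, 15.4% and 32.1% against 22.1% and 19.7%. Under scaling by total counts 19 rose and 23 fell in endosperm, with the median of all genes moved by 0.40. From 6 to 48 h 35 rose and 23 fell in embryo, 44.9% and 29.5% against 35.6% and 26.7%, and 27 rose and 28 fell in endosperm, 34.6% and 35.9% against 27.2% and 24.8%. The comparisons with 24 and 48 h share the libraries at 6 h.

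The alpha-galactosidases of chromosome 1 that had been high in filling grain rose again. AGAL_1Ag0000616 was at 3.10, 4.35 and 3.30 CPM at 6 h and 28.9, 43.7 and 47.3 CPM at 48 h in CDC Morrison embryo, and at 2.84, 4.11 and 2.16 CPM and 39.4, 42.9 and 39.3 CPM in AC Morgan embryo. In endosperm it reached 92.9, 172 and 154 CPM in CDC Morrison and 30.6, 29.3 and 28.2 in AC Morgan at 48 h. The cultivars overlapped in embryo and not in endosperm. The log2 change from 6 to 48 h was 3.59 ± 0.19 in embryo and 1.98 ± 0.18 in endosperm. AGAL_1Ag0000617, the gene of young grain, rose by 4.06 ± 0.39 in embryo, to 9.81 to 29.3 CPM, and had 0.837 to 2.85 CPM in endosperm at 48 h. The summed level of the class in endosperm at 48 h was 938 ± 167 CPM in CDC Morrison, with 550 ± 19.4 CPM in AC Morgan (SD, n = 3).

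TPS11_6Cg0000874 fell by 1.65 ± 0.40 on the log2 scale in embryo between 6 and 48 h, and in endosperm it was at 31.3 to 201 CPM in CDC Morrison and 64.9 to 75.6 in AC Morgan at 48 h, where 1 CDC Morrison library lay well below its replicates. TPP7_5Ag0002326 was at its lowest in embryo at 24 h, with group means of 4.70 CPM in CDC Morrison and 4.21 in AC Morgan, while endosperm had means of 119 and 77.8 CPM then. TPP8_7Dg0000141, named after its values were seen, was listed at 0 in every embryo and endosperm library at 0 and 3 h. At 48 h it reached 4.47, 18.2 and 19.5 CPM in CDC Morrison and 10, 3.79 and 3 in AC Morgan embryo, and the cultivars overlapped.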

How the data were processed

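Stranded mRNA libraries of CDC Morrison and AC Morgan grain were sequenced as single-end reads. The authors deposited estimated counts per gene, unnormalized, for developing grain and for germination, 68572 genes each. They were made with FastQC, Trim Galore, Bowtie2 (removal of rRNA reads) and Salmon against the OT3098 v2 oat transcriptome, and summed to genes. The sources used here give no tool versions. The authors also deposited variance-stabilized values from DESeq2 on a log2-like scale, used here for 1 alternative only. Descriptions and best protein matches are those of the deposited annotation, and no genome was used here, so positions beyond the chromosome in the identifier are not given.

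Groups were taken from the labels for cultivar, tissue and time. Replicate 1 of CDC Morrison at 10 DPE (2184610 counts) was left out, as it is from the deposited normalized table. edgeR 4.0.16 (R 4.3.3) was run on the rounded counts. The filter kept 62030 and 62447 genes that reached a count of 5 in 5% of the libraries or more. Counts were scaled by TMM and fitted with 1 model per experiment, with no block. For 18 contrasts the quasi-likelihood test was used, with p-values adjusted over all genes of a contrast (Benjamini-Hochberg) and a threshold of 0.05. Nothing in the sources says how the germination replicates were taken, so their p-values measure the spread between these samples, which may be technical. Replicates differed by more than sampling noise (lowest variance ratio 11.5 in grain and 2.67 in germination). CPM use a prior count of 2 only for likeness. Figures were drawn in Python 3.11.15 with pandas 2.3.3 and matplotlib 3.10.9. The test was run on simulated data with known changes. For grain at 40 against 20 DPE it recovered 46% of log2 changes of 1 and 91% of log2 changes of 2, with 6 false calls. For embryo at 6 against 0 h it recovered 35% and 85%, with 2 false calls. Many changes of 1 would thus not pass. Alternatives were RLE size factors, total counts, other filters, a replicate block, DESeq2 1.42.0, limma 3.58.1 on the deposited values, a log2 change of at least 1, all 48 grain libraries and each library left out.

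Named genes are the 3 with the largest group mean per class and experiment, the 2 with the largest called change in each direction in 5 contrasts, and genes of the same description on the same chromosome number in another subgenome; exceptions are said to be such. The members, lists and tests were chosen with earlier results of these data known.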

Additional observations from a re-analysis of the deposited data

Results flagged for a closer look

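The cultivars' changes from 20 to 30 DPE differed, by a test of the difference itself, for 4 members with the higher and 12 with the lower change in CDC Morrison. Among those named, the difference on the log2 scale was -2.60 for TPS10_7Cg0002664, -2.43 for AGAL_1Dg0000586, 5.80 for TPP9_5Dg0000479 and 5.27 for TPP9_5Ag0000892. The values of TPP9_5Dg0000479 and TPP9_5Ag0000892 were 2.70 and 3.08 without replicate 2 of AC Morgan at 20 DPE, the 1 library in which both genes were high.

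The tissues' changes from 0 to 6 h differed for 8 members with the higher and 14 with the lower change in embryo. The cultivars' changes in embryo over the same hours differed for 3 members with the higher and 7 with the lower change in CDC Morrison.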

How the results depend on the processing

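The members with the largest called changes kept their sign under each alternative run, but the balance of higher and lower members did not always hold. With scaling by total counts alone, the members higher and lower became 18 and 8 in AC Morgan from 20 to 30 DPE, 18 and 18 in embryo against endosperm at 0 h and 6 and 0 in endosperm from 0 to 6 h. Under it 4 members were lower in embryo from 0 to 3 h, 24 were higher and 14 lower in embryo from 0 to 6 h, 19 were higher in endosperm from 6 to 24 h and 2 were higher in CDC Morrison endosperm at 0 h. Under it the summed galactinol synthase level was 275 CPM in endosperm at 6 h. The alpha-galactosidase sum was 377 CPM in grain at 20 DPE, 220.0 CPM in embryo at 6 h, and 413 and 407 CPM in endosperm at 0 and 6 h. The TPS sum was 553 CPM in grain at 20 DPE, 610 CPM in embryo at 6 h, and 389 and 505 CPM in endosperm at 0 and 6 h, and the TPP sum was 343 CPM in endosperm at 6 h. This scaling does not correct for a few very abundant genes. The 10 most abundant genes of a library, whatever they are, held up to 27.3% of its counts in grain and 40.5% in germination. The 40.5% is that of replicate 2 of CDC Morrison endosperm at 0 h.

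A log2 change of at least 1 left 4 members higher and 3 lower in embryo from 0 to 3 h, none lower in endosperm from 0 to 6 h and 2 higher in CDC Morrison endosperm at 0 h. For endosperm from 0 to 6 h, 1 member was higher with RLE size factors and 1 without a filter, and 2, 3 and 8 were lower with RLE size factors, DESeq2 and limma. For CDC Morrison against AC Morgan, limma gave 7 higher and 6 lower in endosperm at 0 h, and DESeq2 gave 2 lower at 40 DPE. The cause of these changes was not tested.

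With 1 library left out, the members higher ranged from 9 to 17 in CDC Morrison and from 4 to 9 in AC Morgan from 20 to 30 DPE, and those lower from 10 to 13 in AC Morgan. The cultivar difference in that change ranged from 3 to 17 lower, that at 40 DPE from 1 to 4 higher and 1 to 2 lower, and that in endosperm at 0 h from 2 to 6 higher and 1 to 2 lower. Embryo from 0 to 3 h ranged from 5 to 11 higher and 4 to 8 lower, endosperm from 0 to 6 h from 0 to 3 higher and 0 to 2 lower, and the cultivar difference in the embryo change from 0 to 6 h from 4 to 8 lower. The other counts stayed within 1.5 times.

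Replicate numbers were not taken as pairs, since the labels do not say what they share. The correlation of deviations between same-numbered libraries fell as low as -0.504 in grain and -0.370 in germination. A lowest value over many pairs cannot decide whether the numbers are pairs. The mean correlation was 0.0027 in grain and 0.073 in germination. Libraries of other numbers had a mean of -0.035 in germination. That value is largely set by taking deviations from group means, so it is no separate observation. In grain 19 of 47 and in germination 34 of 60 libraries were closest to their own number, a hint from the data of something shared in germination. In CDC Morrison embryo, replicate 1 was the lowest of its group at all 5 times for the TPS, TPP and raffinose synthase-type sums. With a replicate block, 18 members were higher and 32 lower from 20 to 40 DPE, 19 and 24 in embryo from 0 to 6 h, and 3 and 2 in endosperm from 0 to 6 h. The other counts stayed within 1.5 times with the block, with 10 lower for the cultivar difference in the embryo change from 0 to 6 h. The block gives a replicate number the same effect in all groups of an experiment. It cannot take up something shared within 1 series only, such as CDC Morrison embryo.

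Depth limits the genes under 1 CPM, where 1 CPM is about 23.5 counts in the median grain library and 13.0 in the median germination library. Single copies of the 3 subgenomes depend on how reads were divided among them.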

Other observations

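Over the 16 group means of developing grain, the genes whose log2 CPM followed that of GOLS1_5Ag0000617 most closely were GSTU1_7Cg0000573 and TIP11_4Cg0001138, both with Pearson r = 0.991, among 55463 genes compared. AGAL_1Ag0000617 was followed most closely by AGAL_1Dg0000587 (r = 0.995), the member of the same description on chromosome 1D. TPS11_6Cg0000874 was followed by RITF1_6Ag0001149 (r = 0.969) and TPS11_6Ag0001880 (r = 0.966), and TPP7_5Ag0002326 by IQD22_2Ag0001826 (r = 0.905). These correlations are descriptions over group means that share a time course, and reads shared between similar genes could raise those between copies.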
